A study of Triticum aestivum with 27 samples.

Results

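The comparison described here set spikes of the wheat variety Baipimai after 96 h of wetting against spikes of the same variety after 48 h of wetting. Its members were the genes with an FPKM value, the fragments mapped to a gene scaled by its length and the library size, of at least 1 in at least 3 of the 6 libraries. They numbered 51861 of the 153699 genes in the table (33.7%), with 43253 annotated genes and 8608 newly found loci among them. Another 62012 genes had counts under this minimum, and 39826 had no count in the 6 libraries. The study mapped loci for resistance to pre-harvest sprouting (PHS), the germination of grain on the spike in wet weather. It sequenced RNA of wetted spikes from varieties that differ in resistance to check the mapping. Baipimai at 96 h and Baipimai at 48 h had 3 libraries each, and each library came from its own spike. Baipimai is white-grained, and was rated highly resistant in one season and of middle resistance in the other. The other groups used here were Baipimai at 0 h, the white-grained, highly susceptible Zhoumai18 and the red-grained, highly resistant Shengsimai, each at 0, 48 and 96 h with 3 libraries. All spikes, those of 0 h included, were cut at the wax-ripening stage and soaked for 4 h, and those of 48 and 96 h were then kept at 22 °C in moist air, with no chemical treatment. The 0 h spikes were frozen after the soak, so no sample is of dry grain. The study grouped Baipimai and Shengsimai as resistant, 1 of each grain colour, and the susceptible class was represented by 1 variety. A spike holds grain and chaff together. The libraries are called Baipimai as their labels do, although the number in their descriptions and column names belongs to another white-grained variety in the study's list of varieties.

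In ripe cereal grain abscisic acid holds the embryo dormant, and gibberellin released by the wetted embryo switches on hydrolases in the aleurone that open the starch and protein reserves of the endosperm. The embryo axis and coleoptile then grow by loosening their cell walls and laying down microtubules, while germins, peroxidases and chitinases accumulate in the emerging tissues. A variety resists PHS when this sequence is slow to start. In RNA from whole spikes, fewer cells of a type and less RNA per cell cannot be told apart.

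The 3 libraries at 96 h held 46270344 to 47792322 counts, against 48245068 to 53591344 at 48 h. The 50 genes with the most counts took 14.7% of the counts at 96 h and 13.7% at 48 h. Replicates differed beyond sampling noise in every pair, with a chi-square per degree of freedom of 3.74 to 3.83 at 96 h and 4.37 to 9.43 at 48 h, so each library was counted as its own sample. The abundant gene TraesCS5B01G478100 separated Baipimai from Zhoumai18. Its CPM (counts scaled to the library size) at 96 and 48 h was 4032 and 3251 in Baipimai, against 57.6 and 223 in Zhoumai18. TraesCS3D01G468500, encoding the transcription factor subunit TAF9, separated Baipimai from Shengsimai, which the study groups with it as resistant. This gene averaged 0.203 and 0.0574 CPM at 96 and 48 h in Baipimai, against 28.8 and 24.9 in Shengsimai. The listed storage and seed maturation genes summed to 19823 to 20942 FPKM at 96 h and 16483 to 17335 at 48 h. The copies of the globulin gene Glo-3A held most of this sum, and 3 of the 6 tested members fell. The 17 photosynthesis genes summed to 13.9 to 14.9 FPKM at 96 h and 9.57 to 10.7 at 48 h. Most of that came from 2 copies of the thylakoid formation gene TaThf1. These averaged 5.90 and 8.24 FPKM at 96 h and 4.66 and 4.74 at 48 h. Of those 17, 10 had no count at 96 h and 4 had none at 48 h.

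The profile at 96 h was not farther from that of 0 h than the profile at 48 h was. The median absolute difference in log2(CPM + 1) over the members was 0.559 between Baipimai at 96 h and at 0 h, and 0.593 between Baipimai at 48 h and at 0 h. The 96 h and 48 h groups lay 0.357 apart, against 0.106 to 0.109 between replicates at 96 h and 0.101 to 0.144 at 48 h. Of the groups of other varieties, Baipimai at 96 h lay nearest to Zhoumai18 at 48 h, at 0.274, and farthest from Zhoumai18 at 96 h, at 0.724. Its distance to Zhoumai18 at 48 h was smaller than its distance to Baipimai at 48 h. Whether the 48 and 96 h labels of either variety are in the right order was not tested, and each direction given here, within Baipimai and between varieties, follows the labels as deposited. For Baipimai at 48 h the distances to Zhoumai18 were 0.494 at 96 h and 0.291 at 48 h.

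**Figure D1:**
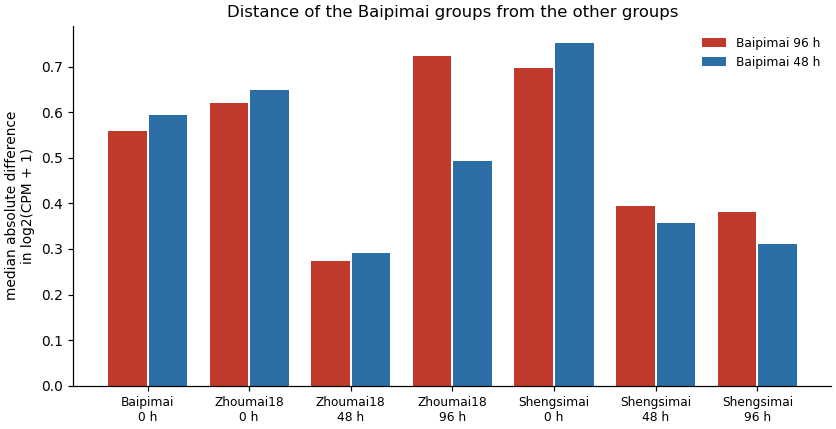
Median absolute difference in log2(CPM + 1) over the 51861 genes between the Baipimai groups at 96 h (red bars) or 48 h (blue bars) and each other group (x axis), from group mean levels. The red bar is lowest for Zhoumai18 at 48 h (0.274) and highest for Zhoumai18 at 96 h (0.724), while the blue bars for those groups stand at 0.291 and 0.494.

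Of the 51861 genes, 33098 (63.8%) differed between 96 and 48 h at an adjusted p under 0.05 in edgeR's quasi-likelihood test. They divided into 16252 higher at 96 h (31.3%) and 16846 lower (32.5%). These shares are the background for each list below. Most changes were small. Of the called genes, 24004 changed by less than 2-fold, and the median log2 change was 0.64 among those that rose and -0.71 among those that fell. At least 2-fold changes were called in 9094 genes (17.5%), with 4016 higher (7.74%) and 5078 lower (9.79%). In 35944 genes (69.3%) all 3 libraries at one time lay above all 3 at the other. At least 16-fold changes were called in 151 genes higher and 155 lower. The balance of directions rested on the scaling. With library totals in place of TMM factors the median change moved to -0.20, against -0.02, and 11671 genes were called higher against 22507 lower.

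Over all members the direction went with the level of a gene. With the members divided into 4 equal bins by mean level, the bin of the highest, 14.8 to 18907 CPM, had 49.4% of its genes higher at 96 h and 24.4% lower. In the bin of the lowest, 0.117 to 2.73 CPM, 17.6% were higher and 38.4% lower. Each library at 96 h had 47172 to 47601 genes at 1 FPKM or more, against 50931 to 52348 at 48 h. FPKM takes library size without the TMM factors, which were 1.01 to 1.03 at 96 h and 1.16 at 48 h. Genes at or above 1 FPKM in the 3 libraries at 48 h and in none at 96 h numbered 3387, and the reverse held for 977. As these entered the comparison through the higher time alone, the 42538 genes at or above the minimum in all 6 libraries give the plainer balance, with 33.7% higher and 28.4% lower. Of the 3387 genes, 3097 were called lower and 0 higher, and the bins by level include them. The trend with level was not tested among the 42538 genes alone. The A, B and D subgenomes had 30.9%, 30.5% and 31.8% of their genes higher and 34.2%, 34.5% and 33.9% lower. The changes were thus spread across the 3 subgenomes. Annotated genes were higher in 31.1% and lower in 34.2%, and newly found loci were higher in 32.7% and lower in 24.1%.

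**Figure D2:**
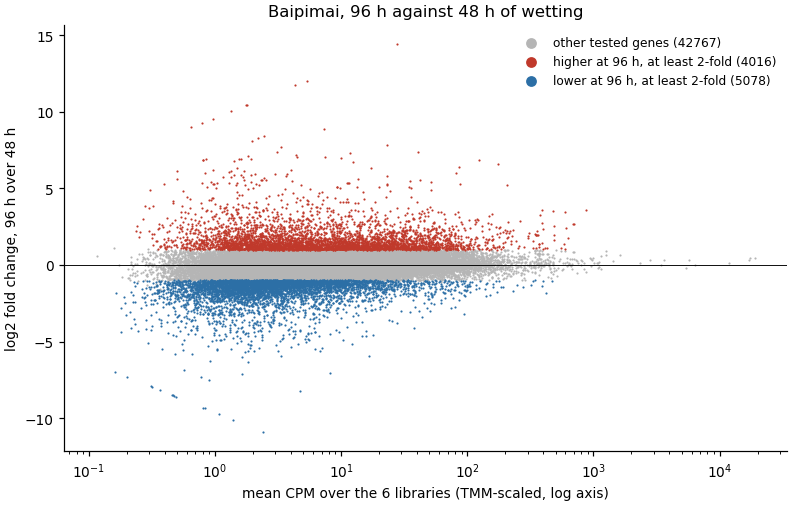
Log2 fold change of 96 h over 48 h in Baipimai (y axis) against the mean CPM over the 6 libraries (log x axis), 1 point per gene. Red points are the 4016 genes called at least 2-fold higher and blue points the 5078 called at least 2-fold lower; 9 genes with no count at 48 h and 14 with none at 96 h carry fitted values that are no bound.

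Germins, peroxidases and other redox enzymes were mostly lower at 96 h. Of 15 tested genes 12 fell and none rose, with a median log2 change of -2.16 against -0.02 over all tested genes. At an unadjusted p under 0.05 in edgeR 13 were lower and 0 higher, and DESeq2 called 12 lower and 0 higher. OXO1 (TraesCS4D01G030700), named for an oxalate oxidase or germin that releases hydrogen peroxide from oxalate, had 0.544, 0.799 and 0.667 CPM at 96 h, against 24.8, 21.6 and 25.2 at 48 h. It was near 0 at 0 h too, with 0 to 0.11 CPM. OXO1 fell by 5.15 on the log2 scale (SE 0.19, adjusted p = 1.97e-17), the largest fall among the named genes of 10 FPKM or more. The peroxidase gene prx (TraesCS2A01G573900) had 1.82, 2.3 and 2.13 CPM at 96 h, against 28.5, 24.9 and 27.6 at 48 h. Its change was -3.69 (SE 0.20, adjusted p = 2.43e-13). Peroxidases use hydrogen peroxide to cross-link wall polymers. The 4 tested copies of the germin-like glp2b on chromosome 4B changed by -3.33 to -4.25. The 5 copies in the table summed to 0.723 ± 0.183 CPM at 96 h and 9.41 ± 1.31 at 48 h (SD, n = 3 each). This sum does not depend on how reads were divided among the copies. Both Prx111-A copies fell, TraesCS2B01G125500 with a change of -2.19 and TraesCS2B01G125600 with -2.16. The glutathione S-transferase genes gstf1 were among the more abundant of the list. The copy TraesCS3B01G334500 had 49.7, 46.1 and 47.9 CPM at 96 h, against 110.4, 107 and 99.4 at 48 h, a change of -1.14 (SE 0.06, adjusted p = 2.43e-15). The superoxide dismutase gene SOD3.2 (TraesCS2A01G537100), with a mean of 38.9 CPM at 96 h and 43.3 at 48 h, was not called (change -0.16, adjusted p = 0.0602). Another gene not called, Prx109-C, averaged 1.9 ± 0.617 CPM at 96 h and 1.26 ± 0.168 at 48 h (SD, n = 3 each), with an adjusted p of 0.0755.

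Of 9 tested cell wall genes 4 fell and 2 rose, with a median change of -0.11, so the list was near the background in both directions. Its summed level was 326 to 417 FPKM at 96 h and 217 to 245 at 48 h. CAD (TraesCS6D01G162800), a cinnamyl alcohol dehydrogenase that makes lignin precursors, had 2.07, 2.34 and 2.65 CPM at 96 h, against 12.7, 11.2 and 11.7 at 48 h. Its change was -2.33 (SE 0.11, adjusted p = 1.9e-16). COMT1 (TraesCS7B01G245500), a methyltransferase of the same pathway, changed by -2.15 (SE 0.16, adjusted p = 5.63e-12), and GT47-13, named for a glycosyltransferase, by -0.45 (adjusted p = 1.52e-05). TaXTH5 (TraesCS7A01G427600) went the other way. This gene of a xyloglucan endotransglucosylase, an enzyme that cuts and rejoins wall xyloglucan, had 225, 293 and 212 CPM at 96 h, against 76.7, 68.3 and 76.4 at 48 h. It rose by 1.72 (SE 0.11, adjusted p = 2.56e-13), and had stood at 3.56 to 3.62 CPM at 0 h. Its relatives TaXTH4 on the A and D subgenomes had changes of -0.11 and 0.15, with adjusted p of 0.55 and 0.465.

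In the list of cell cycle and microtubule genes 3 of 6 fell, and all 3 were the homoeologs of the alpha-tubulin TUBA-4B. The copy on 5D (TraesCS5D01G417700) had 40.7, 39.6 and 36.9 CPM at 96 h, against 116, 125 and 119 at 48 h, a change of -1.62 (SE 0.08, adjusted p = 1.97e-15). The copies on 5B and 5A changed by -1.39 and -1.18. Summed over the 3 copies the level was 119 ± 1.71 CPM at 96 h and 314 ± 10.2 at 48 h (SD, n = 3 each). At 0 h it was 46.9 ± 4.73 CPM. Tubulin thus stood between its 0 h and 48 h levels at 96 h. MYB3R1 (TraesCS3B01G391900), a MYB protein of the class that controls division genes, rose by 0.48 (SE 0.08, adjusted p = 1.32e-05). For cdc2TaA, a cyclin-dependent kinase, and ASY1, a meiotic chromosome axis protein, the adjusted p was 0.218 and 0.352.

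**Figure D3:**
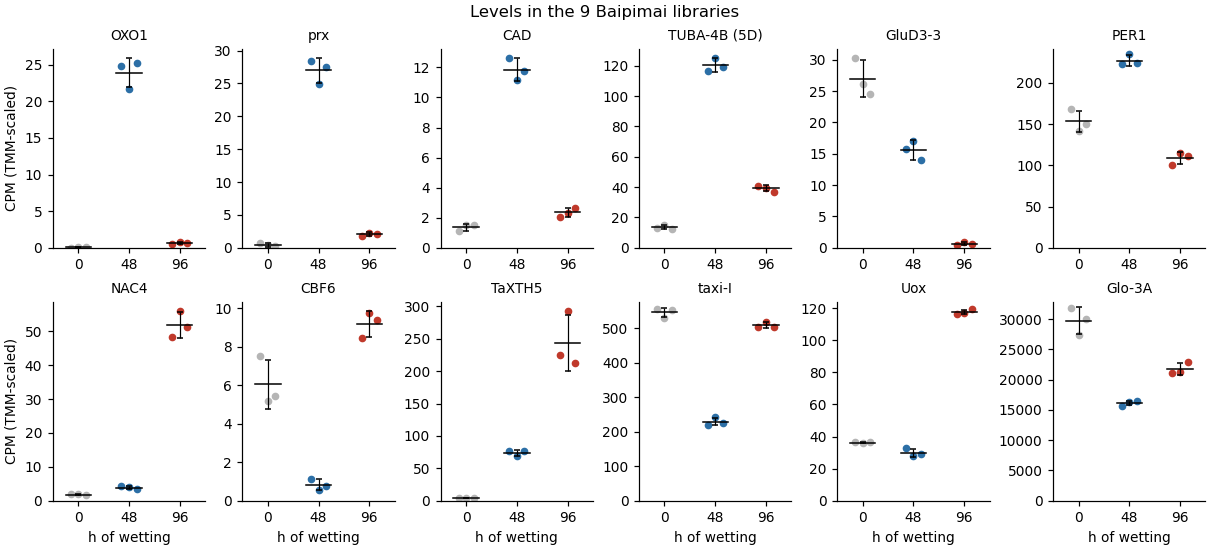
CPM (TMM-scaled, linear y axis from 0) of 12 genes in the 9 Baipimai libraries at 0, 48 and 96 h of wetting. Points are libraries, and bars are the mean ± SD of 3; OXO1, prx, CAD, TUBA-4B, GluD3-3 and PER1 (upper row) are lower at 96 h than at 48 h in every library, and NAC4, CBF6, TaXTH5, taxi-I, Uox and Glo-3A (lower row) are higher.

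Chitinases, which cleave fungal cell walls and rise in germinating cereal grain, mostly fell. Of 6 tested chitinase and glucanase genes 4 fell and 1 rose. Chi 2 (TraesCS2D01G033100), the most abundant, had 112, 120.3 and 108 CPM at 96 h, against 209.6, 200.1 and 188 at 48 h. It changed by -0.81 (SE 0.08, adjusted p = 2.6e-09), while Cht4, Chi 1 and Chi 3 changed by -2.14, -1.50 and -1.45. Glc1 (TraesCS4A01G175900), named for a glucanase, rose by 0.57 (SE 0.10, adjusted p = 1.33e-05). The glucanase gene Glc2 had a change of -0.13 (adjusted p = 0.428).

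Of 3 tested genes for beta-glucosidases, which release toxic benzoxazinoids from their glucosides, 2 fell. Taglu1c (TraesCS2D01G594400) had 30.9, 24.7 and 23.2 CPM at 96 h, against 62.3, 90.5 and 70.5 at 48 h. Its change was -1.50 (SE 0.34, adjusted p = 0.000466). Taglu1b (TraesCS2B01G599800) changed by -1.34 (SE 0.49, adjusted p = 0.023), a call lost without replicate 2 or 3 at 96 h (adjusted p = 0.0786 and 0.0703) and with limma on log2(FPKM + 0.1). DESeq2 gave no adjusted p for these genes. TaGlu1d had a change of -0.44 (adjusted p = 0.363). The 6 Baipimai libraries themselves did not overlap at Taglu1b or Taglu1c.

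Of 5 tested lipid transfer protein genes, which encode small proteins that bind lipids, 2 fell and none rose, in edgeR with or without adjustment of p and in DESeq2. The gene ltp9.4 had a change of -0.19 (adjusted p = 0.272). WLTP1 changed by -2.24 (SE 0.27, adjusted p = 6.04e-08). The 3 LTP2 genes depended on 1 library. TraesCS3B01G062900 had 8.88, 9.94 and 8.05 CPM at 96 h, against 25.2, 0.798 and 23.2 at 48 h, and TraesCSU01G213500 was likewise near 0 in replicate 2 at 48 h alone. In that library the third copy, TraesCS3B01G062800, stood at 67.4 CPM, against 34.8 and 33.5 in the other libraries at 48 h. Their sum was even, at 27.5, 31.6 and 28.2 CPM at 96 h against 76.5, 68.9 and 72.4 at 48 h. Without replicate 2 at 48 h, TraesCS3B01G062900 passed the test with a change of -1.40 (adjusted p = 0.000639) and TraesCSU01G213500 with -1.43 (adjusted p = 8.08e-08).

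The reserve protein genes moved both ways, with 3 of 6 tested members called in each direction. Those of endosperm storage proteins fell, and the globulin genes, whose products are stored in embryo and aleurone, rose. GluD3-3 (TraesCS1D01G000300), named for a low molecular weight glutenin subunit, had 0.461, 0.984 and 0.56 CPM at 96 h, against 15.8, 17 and 14 at 48 h. It fell by 4.54 (SE 0.25, adjusted p = 9.34e-15), having stood at 24.6 to 30.3 CPM at 0 h. The avenin-like avnlb and avnla changed by -3.47 and -2.73. The globulin gene Glo-3A was the most abundant transcript by length. Its copy TraesCS4A01G296000 had 21057, 21226 and 22822 CPM at 96 h, against 15703, 16239.7 and 16395 at 48 h. It rose by 0.43 (SE 0.08, adjusted p = 6.31e-05), and its neighbour TraesCS4A01G296100 by 0.45. With limma on log2(FPKM + 0.1) the call of TraesCS4A01G296000 was lost (adjusted p = 0.0569). The 2 copies summed to 41708 ± 1999 CPM at 96 h and 30729 ± 679 at 48 h (SD, n = 3 each). Both sums were below the 56786 ± 3830 CPM of 0 h. The seed maturation gene SMP rose by 0.43 (SE 0.15, adjusted p = 0.0141), a call lost with library totals (adjusted p = 0.147) and without replicate 2 at 48 h or replicate 1 at 96 h (adjusted p = 0.0739 and 0.0559). Per length, the genes with the highest mean at 96 h were Glo-3A TraesCS4A01G296100 at 10395 FPKM, Glo-3A TraesCS4A01G296000 at 9859, TraesCS5B01G478100 at 8791, TraesCS4D01G016000 at 7962 and TraesCS5A01G329000 at 6501. At 48 h the Glo-3A copies had 8612 and 8301 FPKM, TraesCS5B01G478100 had 8038, TraesCS4D01G016000 had 7293 and TraesCS4D01G016100 had 6434. The leading 5 transcripts thus had 4 in common between the times. TraesCS5A01G329000, with no name in the table, rose by 0.93 (SE 0.16, adjusted p = 1.52e-05).

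Of 5 tested serpin and protease inhibitor genes 4 fell and 1 rose. Their summed level was 619 to 652 FPKM at 96 h and 598 to 673 at 48 h, so the groups overlapped. WSZ2a (TraesCS5B01G419900), a serpin of the starchy endosperm, had 0.0838, 0 and 0.0861 CPM at 96 h, against 1.51, 1.47 and 1.58 at 48 h. It changed by -4.70 (SE 0.42, adjusted p = 1.27e-09). WSZ1c changed by -3.93, and wali6 and wali3, which encode Bowman-Birk-type inhibitors, by -0.69 and -0.48. The gene that rose was taxi-I (TraesCS3B01G514800), an inhibitor of microbial xylanases. It had 505, 519 and 504 CPM at 96 h, against 219.6, 242 and 227 at 48 h, and rose by 1.15 (SE 0.09, adjusted p = 8.13e-12). Its level at 0 h, 531 to 556 CPM, was close to that at 96 h.

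Among 5 tested starch enzyme genes 3 fell and 1 rose. The branching enzyme Sbe2 (TraesCS2A01G293400) had 36.1, 36.1 and 36.8 CPM at 96 h, against 58.5, 54.6 and 54.5 at 48 h, and changed by -0.62 (SE 0.07, adjusted p = 5.33e-08). Sbe1A, another branching enzyme, changed by -1.15 and the disproportionating enzyme DPE1 by -1.17. The starch synthase wSs2a-1 rose by 0.59 (SE 0.11, adjusted p = 4.86e-05). The alpha-amylase gene AMY4 (TraesCS2B01G306400), the only alpha-amylase with a named symbol among the tested genes, had 7.33, 7.91 and 7.04 CPM at 96 h, against 7.58, 8.26 and 8.45 at 48 h, and did not pass (adjusted p = 0.269). Of 4 sucrose and fructan genes, the acid invertase AInv changed by -0.85 (SE 0.16, adjusted p = 4.6e-05). The fructosyltransferase 1-FFT-A was called higher, with a change of 0.57 (SE 0.22, adjusted p = 0.0272), a call lost without replicate 2 at 48 h (adjusted p = 0.118), without replicate 1 or 3 at 96 h (adjusted p = 0.0665 and 0.0533) and with library totals (adjusted p = 0.121). The fructan exohydrolase 6-FEH averaged 37.5 ± 8.65 CPM at 96 h and 38.5 ± 1.85 at 48 h (SD, n = 3 each), and CWINV2SM averaged 13.1 ± 0.568 and 15.6 ± 1.27. Neither passed, with adjusted p of 0.788 and 0.0962.

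Of the 8 tested genes of abscisic acid response and dormancy 3 rose and 4 fell. PER1 (TraesCS2B01G174400), a peroxiredoxin known from barley for its abundance in dormant grain, had 101, 115 and 111 CPM at 96 h, against 223, 235 and 224 at 48 h. Its change was -1.06 (SE 0.08, adjusted p = 6.2e-12). Vp-1A (TraesCS3A01G417300), a seed transcription factor that maintains dormancy, had 34.4, 31 and 32.3 CPM at 96 h, against 41.4, 39.9 and 42.8 at 48 h. This was a change of -0.35 (SE 0.07, adjusted p = 4.53e-05), from levels already under the 70.9 to 78 CPM of 0 h. TaABI1, a phosphatase that holds abscisic acid signalling off, changed by -0.64 (SE 0.08, adjusted p = 6.65e-08), and HVA22L by -0.93. A positive and a negative component of the pathway therefore both fell. SnRK2.4 (TraesCS3B01G413800), a kinase of the family that transmits the signal, had 18.2, 17.9 and 19.3 CPM at 96 h, against 8.38, 9.22 and 9.31 at 48 h. It rose by 1.04 (SE 0.09, adjusted p = 1.53e-10), while the copy on the A subgenome had a change of -0.21 (adjusted p = 0.0799). EmBP-1a, a bZIP factor first found on the promoter of the Em gene, rose by 0.91 (SE 0.11, adjusted p = 5.71e-08). It was nonetheless far below its 0 h level, with a mean of 4.83 CPM at 96 h and 2.58 at 48 h against 31.5 to 33.3 at 0 h. AIP2-1, known from Arabidopsis as a ubiquitin ligase acting on ABI3, rose by 0.91 (SE 0.12, adjusted p = 1.74e-07).

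The gibberellin and diterpene list had 3 tested genes. GASR7 (TraesCS7A01G208100), a small gibberellin-regulated protein linked to grain length, had 0.126, 0.43 and 0.151 CPM at 96 h, against 1.97, 1.58 and 1.53 at 48 h, and fell by 2.82 (SE 0.40, adjusted p = 2.67e-06). KAO-D, an oxidase of gibberellin synthesis, changed by -1.82 (SE 0.30, adjusted p = 9.28e-06). TaKSL3 (TraesCS2B01G445100), a kaurene synthase-like enzyme, had 5.78, 6.58 and 4.91 CPM at 96 h, against 1.97, 2.01 and 2.48 at 48 h, and rose by 1.42 (SE 0.18, adjusted p = 1.11e-07). Of the jasmonate genes, the synthesis enzyme aoc2 changed by -0.78 (SE 0.12, adjusted p = 1.52e-06). The receptor genes COI2 and COI1 changed by 0.45 and -0.25, both past the threshold.

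Transcription factors were the list with the most members rising. Of 11 tested NAC, WRKY, ERF and Q genes 9 rose and none fell, with a median change of 0.72. The counts at an unadjusted p under 0.05 in edgeR and from DESeq2 were the same, 9 higher and 0 lower, while limma and library totals gave 7 higher. NAC4 (TraesCS3A01G339600) rose the most of all named genes of 10 FPKM or more. It had 48.4, 56 and 51.4 CPM at 96 h, against 4.17, 4.08 and 3.35 at 48 h. At 0 h it had 1.61 to 1.96 CPM. Its change was 3.75 (SE 0.22, adjusted p = 3.22e-14). NAC2 (TraesCS5A01G468300), of the same family, had 99.6, 107 and 103 CPM at 96 h, against 54.7, 62.8 and 56.9 at 48 h, and rose by 0.83 (SE 0.07, adjusted p = 5.53e-11). NAC2D, its relative on the D subgenome, had a change of 0.17 (adjusted p = 0.0277) whose sign turned with the scaling. WRKY factors act mainly in defence. WRKY1B (TraesCS2D01G168600) had 3.31, 2.87 and 3.83 CPM at 96 h, against 0.532, 0.69 and 0.798 at 48 h, and rose by 2.30 (SE 0.38, adjusted p = 7.69e-06). WRKY1A and WRKY80 rose by 1.75 and 0.66, and the ethylene-response factors ERFL1a, ERFL2a and ERF5a by 0.77, 0.72 and 0.19.

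CBF6 (TraesCS5A01G312000), a C-repeat binding factor that switches on cold-response genes in the seedling, had 8.44, 9.76 and 9.38 CPM at 96 h, against 1.12, 0.544 and 0.782 at 48 h. It rose by 3.49 (SE 0.22, adjusted p = 1.58e-13) and thereby passed its 0 h level of 5.17 to 7.51 CPM. Of the other 5 tested dehydrin and cold-response genes 3 fell. Wcor413 changed by -0.95 (SE 0.14, adjusted p = 2.45e-06), Wcor518 by -1.41 (SE 0.40, adjusted p = 0.00454) and the dehydrin gene WCOR410 by -0.36 (SE 0.14, adjusted p = 0.0316). The dehydrin gene Wcor410c had a change of 0.15 (adjusted p = 0.324), and Tatil one of -0.15 (adjusted p = 0.666).

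**Figure D4:**
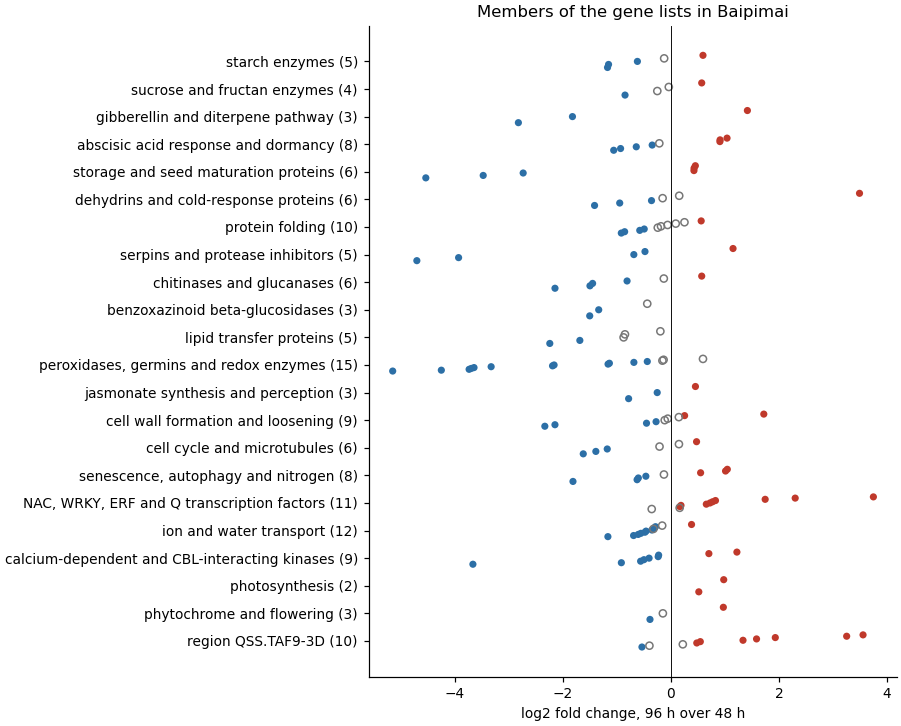
Log2 fold change of 96 h over 48 h (x axis) for every tested member of the 22 gene lists (y axis, number tested in brackets). Filled red points were called higher, filled blue points called lower and open points not called; 12 of 15 redox genes lie left of 0 and filled blue, and 9 of 11 transcription factors lie right of 0 and filled red.

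Genes named for senescence moved in both directions. TaSAG2 (TraesCS4A01G214100) had 31.5, 33.5 and 31.5 CPM at 96 h, against 16.3, 15 and 15.6 at 48 h, and rose by 1.04 (SE 0.08, adjusted p = 1.01e-11), and TaSAG2 on 4B by 0.55 (SE 0.09, adjusted p = 1.1e-05). TaSAG6 (TraesCS3A01G113900) had 774, 761 and 860.0 CPM at 96 h, against 393, 406 and 389 at 48 h, and rose by 1.01 (SE 0.06, adjusted p = 8.9e-14). TaSAG1 (TraesCS2B01G440400) had 5.74, 5.35 and 5.92 CPM at 96 h, against 19 to 20.7 at 48 h, and changed by -1.81 (SE 0.07, adjusted p = 7.14e-18). The 3 homoeologs of ATG8, the protein that coats autophagosomes, fell together, with changes of -0.46 to -0.63. In all, 3 of the 8 tested genes rose and 4 fell, and asparagine synthetase ASN1 did not pass (adjusted p = 0.202). Uox (TraesCS3B01G408900), a urate oxidase of purine breakdown outside the lists, had 117, 117 and 119 CPM at 96 h, against 32.7, 27.8 and 29.1 at 48 h, and rose by 1.98 (SE 0.08, adjusted p = 1.75e-17). GPI (TraesCS1B01G053600), also outside the lists, had 243, 246 and 254 CPM at 96 h, against 109, 112 and 107 at 48 h, and rose by 1.18 (SE 0.07, adjusted p = 2.07e-13). PRP (TraesCS2D01G317800) had 0.817, 0.471 and 0.517 CPM at 96 h, against 5.31, 4.88 and 5.21 at 48 h, a change of -3.09 (SE 0.35, adjusted p = 1.05e-07).

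Ion and water transport leaned to lower levels, with 9 of 12 tested genes falling and 1 rising. The 3 homoeologs of NHX2, a sodium/proton antiporter of the vacuole, changed by -0.69, -0.60 and -0.28. The tonoplast aquaporin gamma-TIP changed by -0.48, the aquaporin AQP4 by -0.56 and the potassium channel TaAKT1 by -0.46. The gene that rose was ha1 (TraesCS2A01G502400), the plasma membrane proton pump, with 741, 696 and 780.2 CPM at 96 h against 558, 551 and 591 at 48 h. It changed by 0.38 (SE 0.06, adjusted p = 3.58e-06). Of 9 calcium-dependent and CBL-interacting kinases, which relay calcium signals, 7 fell and 2 rose. CIPK29 (TraesCS2D01G107100) had 0.126, 0.041 and 0.301 CPM at 96 h, against 2.38, 1.67 and 1.91 at 48 h, and fell by 3.66 (SE 0.39, adjusted p = 5.21e-09). CPK1 (TraesCS4B01G321800) had 19, 19.3 and 19.2 CPM at 96 h, against 9.02, 7.8 and 7.83 at 48 h, and rose by 1.22 (SE 0.09, adjusted p = 2.28e-12). CPK6 on 2A and CPK2B on 4A and 4B changed by -0.56, -0.40 and -0.23.

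Of 10 tested protein folding genes 4 fell and 1 rose, while library totals and limma each called 7 lower. The 3 homoeologs of the disulfide isomerase-like pdil4-1 fell, the copy on 1B (TraesCS1B01G126100) with 67.3, 66.8 and 66.8 CPM at 96 h against 126, 130.4 and 124 at 48 h, a change of -0.92 (SE 0.07, adjusted p = 4.46e-12). The chaperone gene Hsp90.1-A1 rose by 0.56 (SE 0.14, adjusted p = 0.000906), and the disulfide isomerase gene PDI2 had a change of 0.09 (adjusted p = 0.123). Fca (TraesCS5A01G162800), an RNA-binding regulator of flowering time in Arabidopsis, had 62.7, 65.3 and 66.2 CPM at 96 h, against 32.8, 35.5 and 30.7 at 48 h. It rose by 0.97 (SE 0.07, adjusted p = 1.83e-12). The light receptor PHYB changed by -0.39 on the B subgenome (adjusted p = 0.000199) and had a change of -0.15 on the A subgenome (adjusted p = 0.0744). The 2 tested photosynthesis genes, both copies of the thylakoid formation gene TaThf1, rose by 0.98 and 0.52.

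QSS.TAF9-3D is the sprouting locus on chromosome 3D that the study followed. The region was taken here by gene identifier, from TraesCS3D01G465600 to TraesCS3D01G470700, and not by coordinates, so it need not be the interval of the study. It held 52 genes, of which 23 had counts and 10 were tested. Of these 7 rose and 1 fell. TraesCS3D01G466100, encoding a RING-type E3 ubiquitin ligase that tags proteins for breakdown, had 37.3, 35.2 and 33.7 CPM at 96 h, against 25.4, 24.4 and 26.4 at 48 h. It rose by 0.48 (SE 0.08, adjusted p = 8.3e-06). The TAF9 gene TraesCS3D01G468500 was under the minimum, with 0.105, 0.225 and 0.28 CPM at 96 h against 0, 0.0907 and 0.0814 at 48 h, and Tamyb10-D (TraesCS3D01G468400), a MYB factor of red grain colour, had no count in the 9 Baipimai libraries. Larger changes lay in a run of 4 neighbours with no named symbol. TraesCS3D01G467600 had 677, 704 and 672 CPM at 96 h, against 71.5, 70.9 and 72.8 at 48 h, and rose by 3.25 (SE 0.10, adjusted p = 7.33e-20). TraesCS3D01G467700, TraesCS3D01G467500 and TraesCS3D01G467300 rose by 3.56, 1.93 and 1.59. Outside the run TraesCS3D01G465900 rose by 1.34, TraesCS3D01G465600 by 0.54, and TraesCS3D01G470700 changed by -0.54. The genes not called were TraesCS3D01G467200 (change -0.40, adjusted p = 0.282) and TraesCS3D01G470600 (change 0.22, adjusted p = 0.615). By number in the annotation these 4 genes lie close to each other, and reads could be shared where their sequences are alike.

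The largest rises of all were in genes without a name. TraesCS4B01G106400 had 51.5, 51.1 and 35.3 CPM at 96 h, against 0.248, 0.181 and 0.163 at 48 h, a change of 7.85 (SE 0.32, adjusted p = 1.77e-17). Several others sat on the group-6 chromosomes, a grouping seen only after the values were known. TraesCS6A01G381400 had 79, 80.6 and 83.7 CPM at 96 h, against 0.674, 0.236 and 0.554 at 48 h (change 7.36, SE 0.26). Its neighbours TraesCS6A01G380700 and TraesCS6A01G381300 rose by 7.04 and 6.36. On the B subgenome TraesCS6B01G420200 rose by 6.40, and on the D subgenome TraesCS6D01G365700 and TraesCS6D01G366200 by 6.84 and 7.02. The genes TraesCS6A01G381300, TraesCS6B01G420200 and TraesCS6D01G365700 carry the same database symbol, LOC109768977. All 6 were at or below 5.39 CPM at 0 h. Among the largest falls TraesCS6B01G364800 had 1.24, 0.184 and 0.172 CPM at 96 h, against 32.3, 32.5 and 32.5 at 48 h, a change of -5.92 (SE 0.66, adjusted p = 1.26e-08). TraesCSU01G108100 changed by -5.59 (SE 0.32, adjusted p = 3.19e-14).

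A newly found locus, Triticum_aestivum_newGene_14108, had counts in some Baipimai spikes and none in others. It had 2625, 2782 and 2564 counts at 96 h, against 0 in each of the 3 libraries at 48 h, and was at least 3212-fold higher when the 48 h group is set to the floor of 3 counts. At 0 h it had 2446, 14 and 1945 counts, so 1 of the 3 Baipimai spikes at 0 h had nearly none of its counts. The same split occurred in Shengsimai at 0 h, with 26, 2948 and 2896 counts, and this variety had no count at 48 or 96 h. This locus was picked out after its values were seen. Other loci with a break between groups or at 0 h were not searched for. Breaks of 1 library within the Baipimai groups at 96 and 48 h were rare. Genes more than 10-fold lower in 1 library than in the others, which had at least 50 counts, numbered 0, 3 and 5 in replicates 1 to 3 at 96 h and 5, 8 and 1 at 48 h. Those more than 10-fold higher in 1 library numbered 1, 0 and 1 at 96 h and 0, 0 and 5 at 48 h.

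By the labels, most genes with a large change in Baipimai between 48 and 96 h changed in the opposite direction in Zhoumai18. The change differed between these varieties in 39751 genes (76.6%), more positive in Baipimai in 21587 (41.6%) and more negative in 18164 (35.0%). In Zhoumai18 itself 16828 of the same genes rose (32.4%) and 22314 fell (43.0%). Of the 4016 genes at least 2-fold higher at 96 h in Baipimai, 3188 were lower at 96 h in Zhoumai18 (79.4%) and 318 were higher (7.92%). Of the 5078 at least 2-fold lower, 3851 were higher in Zhoumai18 (75.8%) and 463 lower (9.12%). The median change of the 4016 genes was 1.41 in Baipimai and -1.44 in Zhoumai18. That of the 5078 genes was -1.41 in Baipimai and 1.38 in Zhoumai18. The test of the difference was passed by 3774 (94.0%) and 4723 (93.0%) of them, a count that the choice of the genes on their Baipimai change raises.

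Several named genes followed this opposition, and others did not. OXO1 averaged 0.67 and 23.9 CPM at 96 and 48 h in Baipimai, against 44.5 and 0.777 in Zhoumai18. NAC4 averaged 51.9 and 3.87 CPM in Baipimai, against 1.47 and 29.7 in Zhoumai18. CBF6 averaged 9.19 and 0.815 CPM in Baipimai, against 0.565 and 13.5 in Zhoumai18. For these 3 genes the time with the higher mean was thus not the same in the varieties. All 15 redox genes had a more negative change in Baipimai, and their median change was -2.16 in Baipimai and 1.94 in Zhoumai18. In the 3D region 7 of the 10 genes had a more positive change in Baipimai and 1 a more negative one. GluD3-3 did not follow. It averaged 0.668 and 15.6 CPM at 96 and 48 h in Baipimai, and 0.397 and 15.6 in Zhoumai18, a fall in both. All 6 tested storage and seed maturation genes fell in Zhoumai18, against 3 in Baipimai. PER1 fell in both varieties too, with changes of -1.06 in Baipimai and -1.14 in Zhoumai18. WRKY1B rose in both, by 2.30 and 1.74, as did TaThf1 on 2B, by 0.98 and 1.01. The beta-glucosidase Taglu1b did follow, with 40.6 and 102 CPM in Baipimai against 1093 and 2.15 in Zhoumai18. Its mean was thus higher in Zhoumai18 at 96 h and in Baipimai at 48 h, though no test compared varieties at 1 time. Its counts in Zhoumai18 at 48 h were uneven, at 5, 53 and 292.

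**Figure D5:**
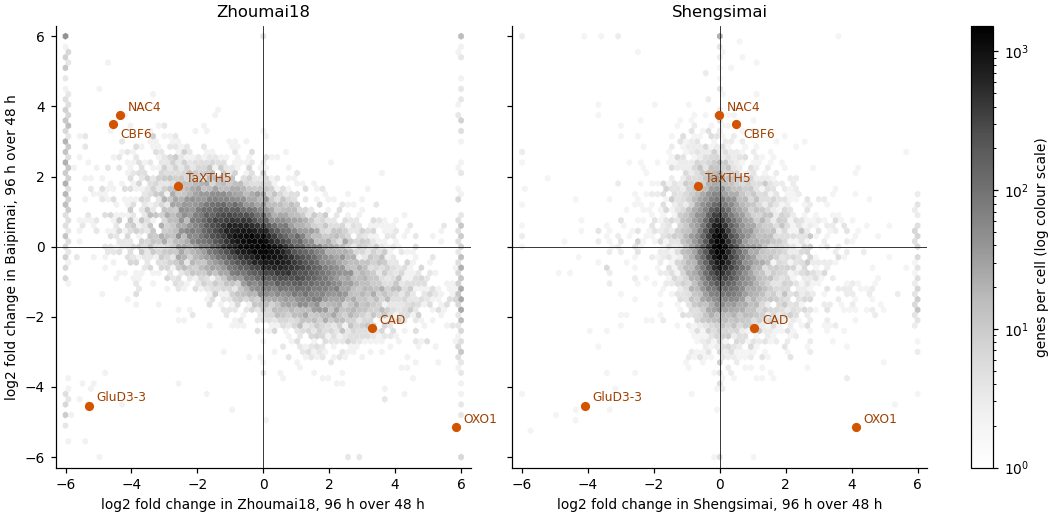
Log2 fold change of 96 h over 48 h in Baipimai (y axis) against that in Zhoumai18 (left) and Shengsimai (right), with darker cells holding more genes and values beyond 6 drawn at 6. Most strongly changed genes lie in the upper left and lower right of the Zhoumai18 panel, as NAC4, CBF6, TaXTH5, OXO1 and CAD do, while GluD3-3 lies in the lower left of both panels.

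Against Shengsimai the change differed in 28345 genes (54.7%), more positive in Baipimai in 13389 (25.8%) and more negative in 14956 (28.8%). In Shengsimai itself 8080 of the same genes rose (15.6%) and 4713 fell (9.09%), over genes filtered on their level in Baipimai alone. Of the 4016 genes at least 2-fold higher in Baipimai, 2490 were called neither way in Shengsimai (62.0%), 833 were lower (20.7%) and 693 higher (17.3%). Of the 5078 at least 2-fold lower, 3121 were called neither way (61.5%), 1566 were higher (30.8%) and 391 lower (7.70%). Their median change in Shengsimai was -0.05 for the genes higher in Baipimai and 0.22 for those lower. OXO1 stayed low in Shengsimai, at 0.255 CPM at 96 h and 0.0123 at 48 h. NAC4 averaged 0.827 and 0.833 CPM there, and taxi-I 188 and 197. The 3 varieties shared no library, but both differences use the same 6 Baipimai libraries.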

How the data were processed

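RNA sequencing of poly-A RNA from whole spikes was analysed in 27 libraries. The authors deposited raw counts per gene and FPKM values per gene for each library in 1 table; aligner, counter and genome build are not given in the sources used here. The counts had not been normalised. In FPKM the authors divided by gene length and by library size, and FPKM served here for the filter and for levels between genes. 1 malformed line was left out, 0 value columns belonged to no sample, and the phenotype file was not used. A gene was a member with at least 1 FPKM in at least 3 of the 6 Baipimai libraries at 96 and 48 h.

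Counts were fitted with edgeR 4.0.16 (R 4.3.3), with TMM factors, 9 group means over 27 libraries and the quasi-likelihood test, on the 68658 genes with 1 FPKM in 3 libraries. Benjamini-Hochberg adjustment ran over the 51861 members. Genes were called at an adjusted p under 0.05, and in a second rule also with a 2-fold change. CPM values are on the TMM scale. Changes are log2 fold changes of 96 h over 48 h with the standard error from the fit, and differences between varieties are contrasts of the same fit. The procedure was tested on simulated data. Alternatives were limma 3.58.1 on log2(FPKM + 1) and log2(FPKM + 0.1), DESeq2 1.42.0, other scaling factors, other filters, the 6 or 12 libraries alone, a replicate block and leaving out each library.

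Total counts were 46270344 to 53591344 over the 6 libraries, so precision for abundant genes was set by the spread between spikes, and counts of 0 allowed up to 3 counts.

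Gene names are symbols of the closest named database protein in the annotation column, or names used by the study; they do not establish identity. Symbols that are LOC numbers counted as no name. Of the members 238 had a named symbol, 20385 a LOC symbol and 31238 none. The RefSeq gene table at hand matched none of the identifiers, so no sequence or coordinate is given. Reads can be divided between near-identical homoeologs and tandem copies, and sense and antisense reads cannot be told apart, as the library kit is not stated to keep strand. Genes were named by rule: those the study names in its locus, all members of lists with up to 8 tested genes, the most abundant and most changed members of longer lists, the 10 named genes that rose and fell most and 2 unnamed ones each way with 10 FPKM or more and no overlap between groups, the 5 most abundant at each time, and the 3 largest differences between varieties. Genes named outside this rule are said to be chosen after their values were seen, or lie in the listed families. The members and lists were chosen with earlier results of these data known. Each spike counts as a biological replicate.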

Additional observations from a re-analysis of the deposited data

Results flagged for a closer look

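The changes from 48 to 96 h that differed between varieties, by a test of the difference itself in edgeR's quasi-likelihood fit, numbered 39751 genes against Zhoumai18 and 28345 against Shengsimai. The genes given here had the largest differences under the rule for named genes, or were list members that differed from Zhoumai18 by 7 or more on the log2 scale. Values are the change in Baipimai minus that in the other variety, as log2 fold changes.

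Against Zhoumai18 the regulators NAC4 and CBF6 differed by 8.08 and 8.06. Redox genes differed the other way, with OXO1 at -11.0, Prx111-A at -7.97 (TraesCS2B01G125500) and -7.48 (TraesCS2B01G125600), glp2b TraesCS4B01G377200 at -7.6 and Prx109-C at -7.57. Prx109-C itself was not called between 96 and 48 h in Baipimai. It had 0, 2 and 0 counts in Zhoumai18 at 48 h, so the size of its difference is poorly fixed. The beta-glucosidases Taglu1b and Taglu1c differed by -10.3 and -9.95, the aquaporin gene HvPIP2;1 by -9.85 and the kinase gene CIPK29 by -7.36. HvPIP2;1 was not called in Baipimai either (adjusted p = 0.315).

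In the QSS.TAF9-3D region TraesCS3D01G467600 differed from Zhoumai18 by 7.96 and TraesCS3D01G467500 by 7.19. TraesCS3D01G467700 had no count in Zhoumai18 at 96 h, so its fitted size is not given (adjusted p = 4.19e-18).

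Genes without a name held the widest differences. TraesCS1D01G376300 differed from Zhoumai18 by 20.3, with 349 and 3.57 CPM at 96 and 48 h in Baipimai against 0.0407 and 582 in Zhoumai18. It had 3, 0 and 4 counts in Zhoumai18 at 96 h, so the size of this difference too is poorly fixed. On the group-6 chromosomes TraesCS6A01G381300 differed by 15.7 and TraesCS6A01G380700 by 14.1, while TraesCS6A01G381400 (adjusted p = 1.34e-20) and TraesCS6D01G366200 (adjusted p = 4.74e-18) had no count in Zhoumai18 at 96 h. TraesCS6B01G364800 differed by -15.0, TraesCS7D01G530700 by -12.0, TraesCS4D01G031800 by -8.4 and TraesCS4A01G181900 by -7.72. TraesCSU01G144500 had no count in Zhoumai18 at 48 h (adjusted p = 3.74e-12).

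Against Shengsimai the differences with a group at 0 were those of TraesCS6A01G380700 (adjusted p = 8.02e-12), TraesCS6A01G381300 (adjusted p = 1.47e-11) and TraesCS6A01G381400 (adjusted p = 7.71e-11), which rose in Baipimai and had no count in Shengsimai at 96 h. TraesCS4A01G181900 (adjusted p = 1.02e-10), TraesCS4A01G389900 (adjusted p = 1.45e-13) and TraesCS4D01G031800 (adjusted p = 7.74e-14) fell in Baipimai and had no count in Shengsimai at 48 h.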

How the results depend on the processing

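The number of genes called between 96 and 48 h in Baipimai stayed within 1.5 times the reported 33098 under every alternative run, at 30470 to 42388. Without a filter on low values 18461 genes were called at least 2-fold changed (8261 higher, 10200 lower), and the difference from Zhoumai18 was called in 61052 genes, 31030 of them lower in Baipimai, as more genes were tested. With the filter taken over all 27 libraries 7803 genes were at least 2-fold lower. With limma on log2(FPKM + 1), a scale that shrinks changes of low genes, 4964 were at least 2-fold changed (1867 higher, 3097 lower). The split moved with the scaling, to 11671 higher and 22507 lower with library totals, 12406 and 23159 with limma on log2(FPKM + 1) and 11522 and 21972 on log2(FPKM + 0.1). Against Shengsimai, library totals gave 9925 higher and 19086 lower. DESeq2 called 33521 genes, 9031 of them at least 2-fold changed.

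Leaving out 1 library at a time gave 30470 to 31605 called genes, 9061 to 9208 at least 2-fold changed, 103 to 108 called list members (109 with all libraries), 8 in the QSS.TAF9-3D region throughout, 1709 to 2154 newly found loci called lower, 38889 to 39296 differences from Zhoumai18 and 26692 to 27862 from Shengsimai. NAC2D changed sign, to -0.0108 with library totals and to -0.0141 and -0.0144 with limma; the cause was not tested. Single calls were followed for genes named by the rule or chosen after their values were seen, and not for other members of the lists. Among the genes followed, calls lost under some alternative were those of NAC2D, 1-FFT-A, SMP, WCOR410, Taglu1b, CPK2B on 4B, Glo-3A TraesCS4A01G296000, TraesCS5B01G478100, TraesCS4D01G016000 and TraesCS7D01G530700. For the 3 beta-glucosidases DESeq2 gave no adjusted p. Among list counts, lower lipid transfer genes became 4 of 5 without replicate 2 at 48 h, lower folding genes became 7 of 10 with library totals and limma, and 1 redox gene was called higher without replicate 2 at 96 h, with the 6 libraries alone and with limma on log2(FPKM + 1). With 1 library left out, lower ion and water transport genes numbered as few as 7 of 12 and lower calcium-dependent and CBL-interacting kinases 5 of 9. Higher transcription factors numbered as few as 7 of 11 and higher cell wall genes 1 of 9. Of 2319 values of single genes under the alternatives 2242 kept their direction and side of the threshold.

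Libraries with the same replicate number did not deviate together, with correlations of -0.042, -0.040 and -0.051, so the numbers were not taken to pair spikes. A replicate block in a fit of the 6 libraries alone called 32951 genes (33985 without the block), 9149 at least 2-fold changed, 108 list members and 8 in the region, and the block gave 39782 differences from Zhoumai18 and 28041 from Shengsimai. Counts near 0 limit the genes that were silent at one time, whose fitted changes are no bound.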
